A study of Homo sapiens with 12 samples.

Results

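HMOX1 and TXNIP are 2 redox genes of the 5499 genes named on 12 arrays, each read by 1 of 8170 probes. The arrays set drug-treated H460 cells against untreated H460 cells. Both were found by the platform's annotation and chosen by their measured response, HMOX1 for its high ratio in 5-fluorouracil and TXNIP for its high ratio in cisplatin, so their ratios are given as a description and carry no test. H460 is a human lung cancer line with wild-type p53 and a mutated KEAP1 gene. The cells were treated for 24 h with 1 µM 5-fluorouracil (5-FU), a pyrimidine antimetabolite, 0.2 µM cytarabine, a nucleoside that stops DNA synthesis, 5 µM cisplatin, which crosslinks DNA, 5 nM paclitaxel, which stabilises microtubules, or 0.2 µM cytochalasin D, which blocks actin assembly. Untreated H460 RNA was in the other channel of every array.

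5-FU was hybridised on 4 arrays, 2 replicates in each channel orientation, and each other drug on 2 arrays with the drug-treated RNA in channel 1. No label states that replicates were separate cultures, or that each drug had untreated RNA of its own, so the spread below is that between these samples and may be technical. Fewer cells of a kind and less RNA per cell cannot be told apart in such bulk RNA. A ratio within an array gives no level of a gene, so H460 identity could not be checked against marker genes. The arrays hold 4357 to 7644 values each. Values are log ratios, taken here as log2, with each array centred on its median. The labels do not give the numerator. Drug over untreated is the likely direction, being the one in which the p53 targets MDM2 and CDKN1A and the median of 13 p53 targets (0.24) are positive in 5-FU. With the other numerator every sign below would turn.

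HMOX1 encodes haem oxygenase-1, the inducible enzyme that opens haem into biliverdin, carbon monoxide and iron. Its gene is switched on by the transcription factor NRF2, which KEAP1 marks for degradation, and is repressed by the haem sensor BACH1. TXNIP encodes an arrestin-like protein that binds and inhibits thioredoxin, the small disulphide reductase of the cytosol, and lowers glucose uptake. Its transcription follows glucose metabolites through the factor MondoA and its partner MLX.

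The upstream sequence of TXNIP is shown because this is the region through which MondoA and MLX are known to act. The window covers the 250 bases before 1 of 2 annotated starts on the minus strand of GRCh38.p14, chr1:145996580-145996829 (RefSeq), printed 5′ to 3′.
TXNIP upstream: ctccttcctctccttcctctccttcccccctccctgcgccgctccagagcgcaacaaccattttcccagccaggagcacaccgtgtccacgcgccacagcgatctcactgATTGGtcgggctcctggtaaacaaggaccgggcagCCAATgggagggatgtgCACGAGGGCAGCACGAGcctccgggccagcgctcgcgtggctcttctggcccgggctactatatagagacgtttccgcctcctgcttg
Capitals mark matches, on either strand, to CACGAG repeated after 5 bases, a form of a carbohydrate response element, and to the CCAAT box. The repeated motif lies 88 to 72 bases upstream of the start and was found in 2 of 35116 upstream windows of this length (0.0057%). The letters searched for are exactly those that TXNIP carries, and no variant spelling was allowed. The low share therefore follows from the choice of pattern and does not show how common carbohydrate response elements are. The CCAAT box lies at 140 to 136 and at 105 to 101 bases upstream, and 32.0% of the windows hold at least 1. The motifs do not overlap. The window of the other start, chr1:145995745-145995994, held neither motif. These are matches of letters, and no array value bears on binding there.

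In 5-FU the HMOX1 transcript was 5.47-fold higher than in untreated cells. On the arrays with 5-FU RNA in channel 2 the log2 ratios were 2.93 in replicate 1 and 2.62 in replicate 2, and with 5-FU RNA in channel 1 they were 2.13 in each replicate. All 4 arrays were high, and the channel 2 pair was above the channel 1 pair. The 2 replicates, each averaged over both orientations, gave 2.45 ± 0.11 (SD, n = 2). HMOX1 ranked 2 or 3 from the highest ratio on each 5-FU array, among 4243 to 6139 features (genes, or probes without a gene name). Averaged over replicates it was the second of 6425, behind CDKN1A, the cyclin-dependent kinase inhibitor, whose mean rests on 2 arrays with values of 2.41 and 2.57.

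HMOX1 was near the untreated level on most arrays of the other drugs. Its log2 ratios were 0.20 and 0.14 in cytarabine, -0.02 and 0.15 in cisplatin, 0.32 and 0.04 in paclitaxel, and 0.48 and 0.36 in cytochalasin D. The means were 0.17 ± 0.04, 0.06 ± 0.12, 0.18 ± 0.20 and 0.42 ± 0.09 in that order (SD, n = 2 each). In falling order of the means the drugs ran 5-FU, cytochalasin D, paclitaxel, cytarabine and cisplatin. The arrays of paclitaxel, cytarabine and cisplatin overlapped. Both cytochalasin D arrays were above all arrays of those 3 drugs, though the lower one, at 0.36, was close to the higher paclitaxel array, at 0.32. The cytochalasin D ratios placed HMOX1 above 98.2% and 96.2% of the features on those arrays.

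These low values depend on how the channels are treated. The HMOX1 ratios of the 2 orientations of 5-FU imply a channel effect of -0.32, a size reached by 3.50% of 3829 features, against a median size of 0.08. Taking that effect out of the arrays hybridised in 1 orientation gave HMOX1 log2 ratios of 0.49 in cytarabine, 0.38 in cisplatin, 0.50 in paclitaxel and 0.74 in cytochalasin D (SE 0.10 each), and left 5-FU at 2.45 (SE 0.08). Only 5-FU arrays measure the channel effect, so whether it holds on the other arrays was not tested. The same value was taken out of each of the 4 drugs, so their order could not change.

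TXNIP was 4.12-fold higher in cisplatin-treated than in untreated cells. Its log2 ratio was 1.93 in replicate 1 and 2.16 in replicate 2, with a mean of 2.04 ± 0.17 (SD, n = 2). It ranked 11 of 7279 features on the first array and 7 of 7199 on the second. With the channel effect taken out the ratio was 2.12 (SE 0.10).

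The other drugs left TXNIP near the untreated level. In 5-FU its log2 ratios were 0.16 and 0.03 with drug RNA in channel 2, and -0.09 and -0.02 with drug RNA in channel 1, for a mean of 0.02 ± 0.02 (SD, n = 2 replicates). Cytarabine gave -0.29 and -0.02, paclitaxel 0.10 and 0.02, and cytochalasin D 0.10 and 0.07. The means were -0.16 ± 0.19, 0.06 ± 0.06 and 0.08 ± 0.02 in that order (SD, n = 2 each). The falling order was cisplatin, cytochalasin D, paclitaxel, 5-FU and cytarabine. Of these, cytochalasin D, paclitaxel and 5-FU overlapped, as did 5-FU and cytarabine. The TXNIP channel effect was -0.07, a size that 51.6% of features reached, and taking it out moved cytarabine to -0.08, paclitaxel to 0.13 and cytochalasin D to 0.16 (SE 0.10 each).

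**Figure D1:**
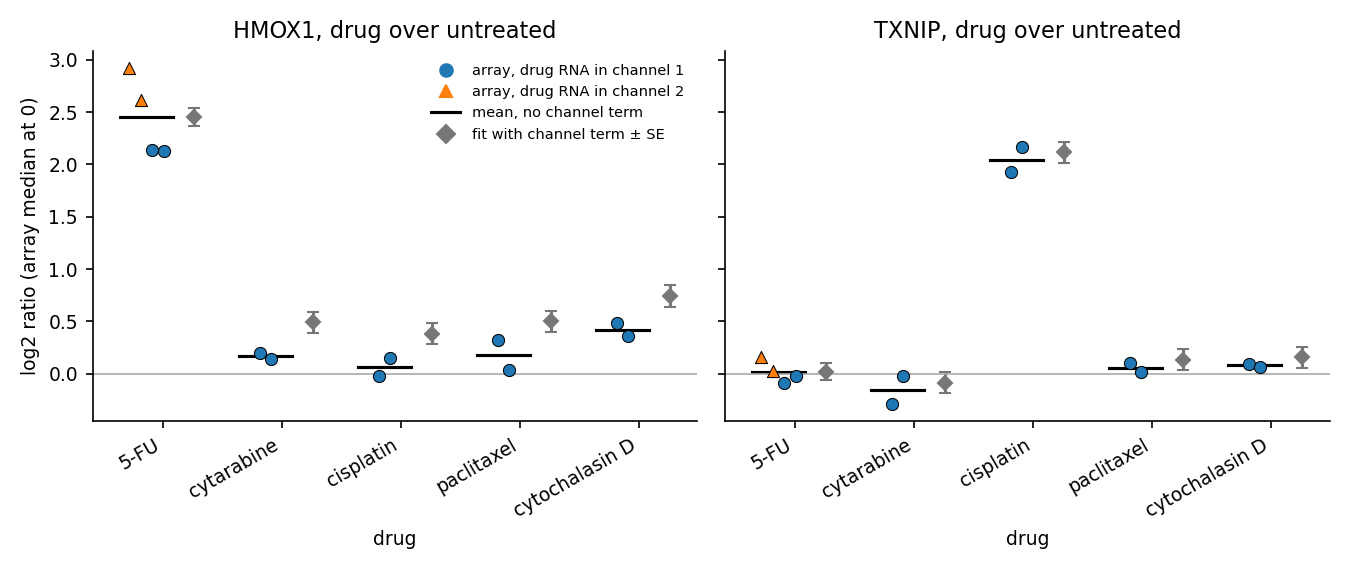
Log2 ratio of drug over untreated RNA (vertical axis) for HMOX1 (left) and TXNIP (right) by drug. Circles are arrays with drug RNA in channel 1, triangles arrays with drug RNA in channel 2, lines the means of 2 replicates, and grey diamonds the fit with the channel effect taken out, with its standard error. HMOX1 is high on all 4 5-FU arrays, from 2.13 to 2.93, and TXNIP on both cisplatin arrays, at 1.93 and 2.16.

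The 2 genes separated 5-FU from cisplatin in opposite ways. The HMOX1 log2 ratio was 2.39 higher in 5-FU than in cisplatin, and that of TXNIP was 2.03 lower. With the channel effect taken out these differences were 2.07 and -2.10. MDM2, the ubiquitin ligase that limits p53, was high in both drugs, with array values of 1.15 to 1.80 in 5-FU and of 2.75 and 2.57 in cisplatin. Its positive sign in 5-FU was fixed by the choice of direction, whereas its cisplatin values did not enter that choice. HMOX1 in 5-FU also exceeded its ratio in cytarabine by 2.28, in paclitaxel by 2.27 and in cytochalasin D by 2.03. TXNIP in cisplatin exceeded its ratio in paclitaxel by 1.99 and in cytochalasin D by 1.96, and cytarabine minus cisplatin was -2.20. Over the 10 pairs of drugs, the array ranges of HMOX1 overlapped in 3 and those of TXNIP in 4. The overlapping pairs lay among cytarabine, cisplatin and paclitaxel for HMOX1, and among 5-FU, cytarabine, paclitaxel and cytochalasin D for TXNIP.

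**Figure D2:**
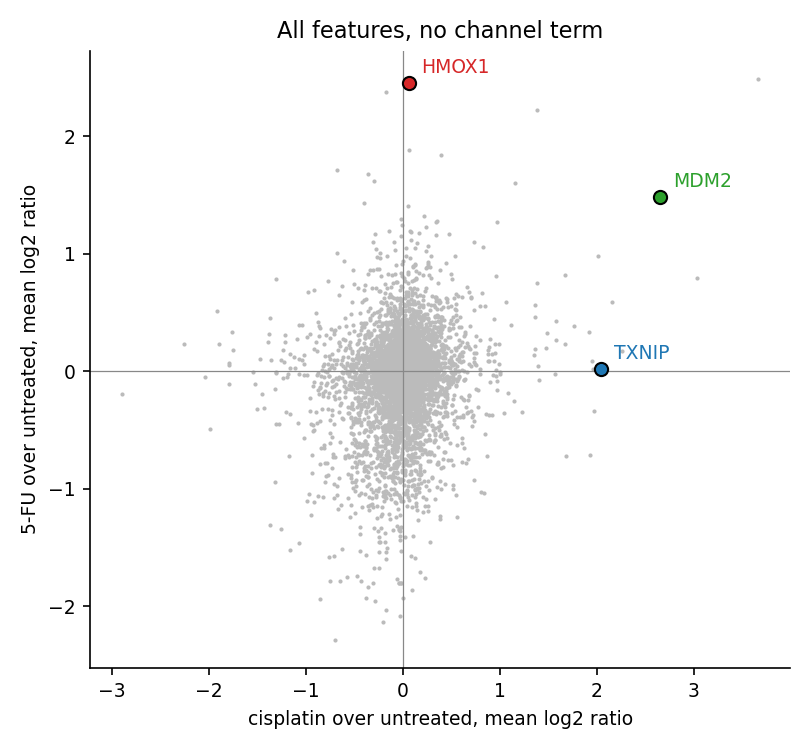
Mean log2 ratio over untreated RNA in cisplatin (horizontal axis) and in 5-FU (vertical axis), without the channel term, with a grey point for each feature measured in both. HMOX1 lies at 2.45 in 5-FU and 0.06 in cisplatin, TXNIP at 0.02 and 2.04, and MDM2 is high on both axes. The sign of MDM2 in 5-FU was fixed by the choice of direction.

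The distance between drugs was measured as the lowest array of one drug minus the highest array of all others, over 3536 features with a value on every array. For HMOX1 the lowest 5-FU array (2.13) was 1.64 above the highest other array (0.48), the widest such gap for 5-FU. The serine carboxypeptidase-like gene CPVL followed with 1.35, where the other drugs were low rather than 5-FU high. For TXNIP the lowest cisplatin array (1.93) was 1.77 above the highest other array (0.16), which was second to RGS2, a regulator of G protein signalling, with 1.94. CPVL and RGS2 are also named below for likeness. Some gap above 0 was present for 4.02% of features in 5-FU and for 7.32% in cisplatin. Since the genes were chosen for these ratios, their place supports nothing further.

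The genes whose ratios followed HMOX1 most closely were ranked by Pearson's r over the 12 arrays, among 2452 named genes with a value on each. The arrays share drugs, channel orientation and perhaps untreated RNA, and 4 of them are 5-FU arrays, so r mostly reads 5-FU against the rest. The highest were CPVL (0.97), GPRC5A (0.97), DICER1 (0.96), GCLM (0.94) and JMJD8 (0.94). GPRC5A, a retinoic acid-induced membrane receptor, was itself high in 5-FU, with array values of 1.04 to 1.41 in 5-FU and 0.12 to 0.40 in the other drugs. CPVL and DICER1, the ribonuclease that makes microRNAs, reached their r from low values in the other drugs. CPVL was between -0.21 and -0.02 in 5-FU and between -2.13 and -1.56 elsewhere. GCLM, the regulatory subunit of the enzyme that starts glutathione synthesis, lay between -0.17 and 0.16 in 5-FU and between -0.53 and -0.30 elsewhere. The lowest r were those of SARM1 (-0.97), an NAD-cleaving enzyme with a mean of -2.03 in 5-FU, and the splicing factor SRSF9 (-0.97), with a mean of -0.61.

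For TXNIP the highest r were those of MBTPS1 (0.98), STK17A (0.97), RGS2 (0.97), PPM1D (0.95) and PIP5K1A (0.93). All 5 were high in cisplatin. For TXNIP r mostly reads the 2 cisplatin arrays against the rest, so a high place in cisplatin is built into this ranking. STK17A, a kinase linked to apoptosis, had array values of 1.26 and 1.55 there and of -0.38 to 0.23 elsewhere, and PPM1D, the p53-induced phosphatase, 1.62 and 1.71 against -0.46 to 0.36. MBTPS1, the protease that activates sterol-regulated factors, shared the shape at a smaller size, with a mean of 0.51 in cisplatin. RGS2 differed from TXNIP in 5-FU, where its mean was -0.72. SLC7A5, an amino acid carrier (-0.87), and GLA, a lysosomal galactosidase (-0.86), had the lowest r, with means of -0.49 and -0.69 in cisplatin.

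**Figure D3:**
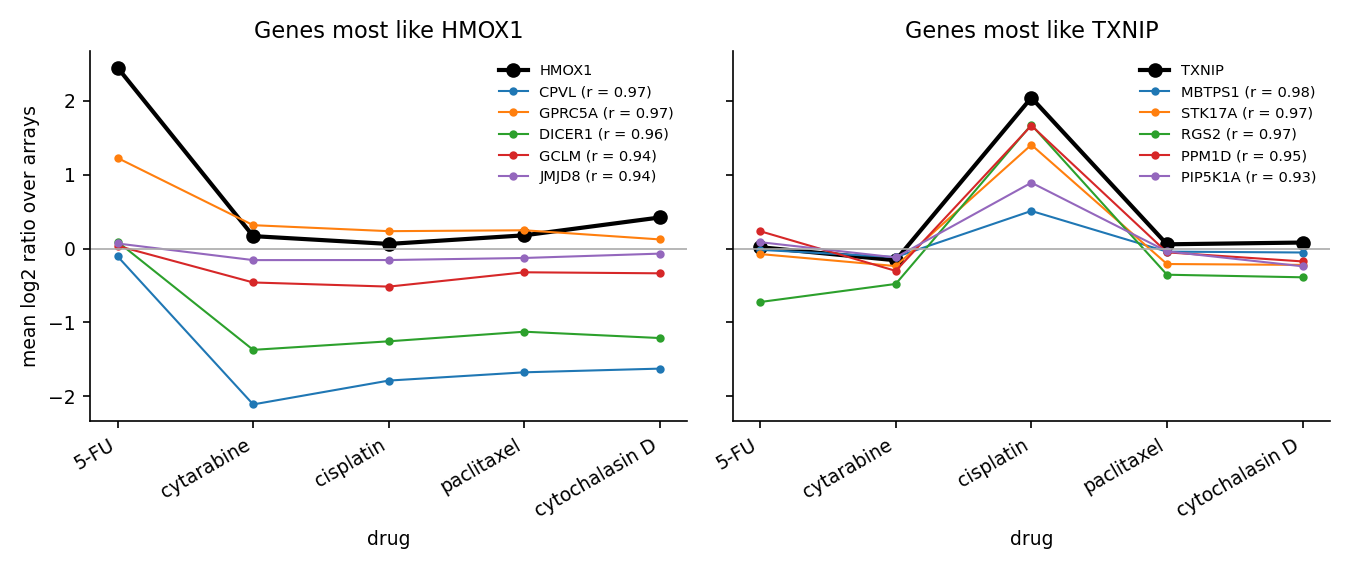
Mean log2 ratio over the arrays of each drug (vertical axis) for HMOX1 and TXNIP (black) and for the 5 genes with the highest Pearson's r to each over 12 arrays (coloured). Genes like HMOX1 differ in level and share the step between 5-FU and the other drugs, whereas the genes like TXNIP are all high in cisplatin.

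The genes around both members were read from 8 lists of 153 genes, of which 57 have a probe and 56 a value. HMOX1 and TXNIP are left out of them. These genes were tested with limma against untreated RNA, with the channel effect in the fit, and "rose" and "fell" mean an adjusted p under 0.05 over all features. In 5-FU 2 of 40 tested rose and 13 fell, against 5.41% and 12% of 5043 features, with a list median of -0.05 against 0.01 for all features. In cytarabine 8 of 39 rose and 6 fell, against 10.6% and 11.1% of 4828 features (medians 0.01 and 0.04). In cisplatin 5 of 40 rose and 6 fell, against 8.49% and 7.76% of 4936 features (medians 0.00 and 0.01). Paclitaxel gave 2 rises and 1 fall among 39, against 2.60% and 3.97% of 4915 features (medians 0.01 and 0.02), and cytochalasin D 2 rises and 2 falls among 40, against 4.37% and 6.45% of 4915 features (medians 0.00 and 0.02). Calls of paclitaxel and cytochalasin D went to 0 without either replicate of the same drug. Without 5-FU replicate 1, 0 were left in paclitaxel and 1 in cytochalasin D, and without either cisplatin replicate 2 in cytochalasin D. The 14 calls of cytarabine became 5 without its replicate 1, 4 without its replicate 2, 7 without 5-FU replicate 1 and 9 without 5-FU replicate 2, and the 11 of cisplatin became 7 without either of its replicates. The 15 calls of 5-FU became 10 without its replicate 1 and 12 without its replicate 2.

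Without the channel term, which also lets more genes be tested, the listed genes called were partly others, and falls outnumbered rises in each drug but cisplatin. Over all features falls outnumbered rises in every drug. In cytarabine 3 of 53 passed upwards and 12 downwards, against 10.2% and 15.4% of 7002 features, and 3 of these rises and 5 of these falls were calls with the term as well. In paclitaxel 0 of 53 passed upwards and 3 downwards, against 1.80% and 7.80% of 7230 features, and in cytochalasin D 0 of 54 and 3, against 2.34% and 8.71% of 7233 features. Those 3 genes were GCLM, PRDX3 and TXNRD1 in both drugs, and none of the calls made with the term was among them. GCLM read -0.32 in paclitaxel (adjusted p = 0.011) and -0.33 in cytochalasin D (adjusted p = 0.0088), PRDX3 -0.48 (adjusted p = 0.0046) and -0.31 (adjusted p = 0.025), and TXNRD1 -0.36 (adjusted p = 0.021) and -0.30 (adjusted p = 0.038). In 5-FU 3 of 50 passed upwards and 15 downwards, against 6.94% and 13.9% of 6352 features, with 2 rises and 12 falls shared with the calls above. The unshared calls of MTF1, ARRB1 and SESN1 rest on 1 5-FU array each. That of TXNDC9 rests on 2 arrays, with no replicate measured in both orientations. In cisplatin 9 of 54 passed upwards and 5 downwards, against 6.59% and 9.02% of 7287 features, with 5 rises and 5 falls shared.

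Of 30 other NRF2 targets listed, 10 were tested in 5-FU, of which 4 fell and 1 rose (median -0.18). Over all features 12% fell and 5.41% rose in 5-FU. SLC7A11, the cystine carrier that feeds glutathione synthesis, fell by 1.52 ± 0.09 (SE; adjusted p = 3.1e-05), with array values of -1.85 to -1.12. TXNRD1, the reductase of thioredoxin, fell by 0.78 ± 0.07 (adjusted p = 0.00022), with all 4 arrays between -1.19 and -0.30. The aldo-keto reductases AKR1B10 and AKR1C1 read -0.47 and -0.30 and passed, but AKR1B10 no longer did without 5-FU replicate 1 (-0.39) and AKR1C1 without replicate 1 (-0.25) or replicate 2 (-0.36). The AKR1C1 arrays ran from -0.56 to 0.06. AKR1C1 has near-identical relatives that a probe may not tell apart. ALDH3A1, an aldehyde dehydrogenase, rose by 0.81 ± 0.12 (adjusted p = 0.0024). GCLM read 0.04, with array values of -0.17 to 0.16, and did not pass (adjusted p = 0.73).

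In cytarabine the same list had 4 falls and 1 rise among 10 tested (median -0.23), and in cisplatin 4 falls and 1 rise among 10 (median -0.06). Over all features 11.1% fell and 10.6% rose in cytarabine, and 7.76% fell and 8.49% rose in cisplatin. SLC7A11 fell by 1.36 ± 0.10 in cisplatin (adjusted p = 0.00042) and by 0.65 ± 0.10 in cytarabine (adjusted p = 0.0065). GCLM fell by 0.41 in cisplatin, with arrays at -0.53 and -0.50, and by 0.36 in cytarabine, a call that ended without cytarabine replicate 2 (-0.36, adjusted p = 0.054). TXNRD1 fell by 0.47 in cisplatin, where it did not pass without replicate 2 (-0.41), and by 0.45 in cytarabine, where it did not pass without replicate 1 (-0.41). Without the channel term TXNRD1 read -0.80 in cisplatin (adjusted p = 0.00065) and -0.78 in cytarabine (adjusted p = 0.00033), beside -0.78 in 5-FU. Whether its fall was larger in 5-FU therefore depends on the channel term. ABCC3, an efflux pump, fell by 0.88 in cisplatin and did not pass without replicate 2 (-0.74), while ALDH3A1 rose by 1.01 ± 0.14 (adjusted p = 0.0045). AKR1B10 is the remaining fall in cytarabine, at -0.41, and it did not pass without cytarabine replicate 2 (-0.31), 5-FU replicate 1 (-0.42) or 5-FU replicate 2 (-0.39). AKR1C1 read -0.20 in cytarabine and did not pass, but without the channel term it passed as a fall (-0.43, adjusted p = 0.0051). The single rise of cytarabine, paclitaxel and cytochalasin D was CBR1, a carbonyl reductase, at 0.41, 0.54 and 0.48. Its arrays read 0.01 to 0.11, 0.10 to 0.28 and 0.04 to 0.20, and it did not pass in any of these drugs without the channel term or without either replicate of the drug. It also missed the threshold in paclitaxel without either cisplatin replicate, and in cytochalasin D without either cisplatin or either cytarabine replicate. Drugs may share untreated RNA, so these columns of values are set side by side only.

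Among the regulators of HMOX1, KEAP1 read 0.00 in 5-FU and BACH1 0.05, and neither passed in any drug with the channel term; without it BACH1 passed in cytarabine (-0.38, adjusted p = 0.036). BACH1 in 5-FU rests on 1 replicate. KEAP1 arrays ran from -0.30 to 0.37 in 5-FU. The ubiquitin ligase scaffold CUL3, which works with KEAP1, fell by 0.82 in 5-FU (adjusted p = 0.0011), and MAFG, a small partner of NRF2 and BACH1, read -0.37 and passed. Both values rest on 1 replicate with both orientations, as do those of UROS and CTH in 5-FU below, so these p-values borrow the spread of the other drugs and assume that the lone replicate varies like them. MAFG also passed in cisplatin (-0.40) and, upwards, in cytarabine (0.47), but not without cisplatin replicate 1 (-0.35) or 2 (-0.46) in the first and not without cytarabine replicate 1 (0.41) in the second. It did not pass in 5-FU or cisplatin without either cytochalasin D replicate (-0.37 and -0.40), nor, without the channel term, in 5-FU (-0.23) or cytarabine (0.22).

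In haem synthesis and iron handling 2 of 9 tested genes fell in 5-FU and 0 rose (median -0.04), against 12% and 5.41% of all features. CPOX, a late enzyme of haem synthesis, read -0.40 and did not pass without 5-FU replicate 2 (-0.21). UROS, which closes the tetrapyrrole ring, read -0.72 from 1 replicate, with arrays between -1.40 and -0.04. UROS was called lower in every other drug as well, from -0.65 in cisplatin to -0.47 in cytarabine, while its arrays there read -0.06 to 0.31. Without the channel term it was 0.21 in cytarabine, 0.02 in cisplatin, 0.09 in paclitaxel and 0.17 in cytochalasin D and passed in none of them. With that term its calls also ended without cytarabine replicate 1 in cytarabine (-0.37), cisplatin replicate 1 in cisplatin (-0.57), either paclitaxel replicate (-0.54 and -0.63) and either cytochalasin D replicate (-0.48 and -0.54). PCBP1, an iron chaperone, rose by 0.42 in cytarabine (0.37 and not passing without replicate 2) and by 0.34 in cisplatin, where it did not pass without either cisplatin replicate (0.33 and 0.35) or 5-FU replicate 2 (0.30). SLC11A2, an importer of ferrous iron, read 0.34 in cytarabine and passed, but not without cytarabine replicate 2 (0.27), 5-FU replicate 2 (0.27) or the channel term (0.19). CP, the plasma ferroxidase ceruloplasmin, passed at 0.21 in cytarabine (adjusted p = 0.049) and did not pass without any 1 of the 10 replicates (0.17 to 0.26).

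For the thioredoxin system, the partner of TXNIP, 4 genes were tested. PRDX3, the mitochondrial peroxiredoxin, fell by 1.21 ± 0.07 in 5-FU (adjusted p = 2.4e-05), with all 4 arrays between -1.87 and -0.72. In cytarabine PRDX3 read 0.01 with the channel term, and without it passed as a fall (-0.40, adjusted p = 0.0043). In cisplatin, where TXNIP was high, PRDX3 read 0.27 with the channel term and -0.15 without it, PRDX1 read 0.32, and neither passed. TXNRD1 is described above and was the 1 fall of the 4 in cisplatin, where 7.76% of all features fell. MAP3K5, the stress kinase that thioredoxin holds inactive, read -0.39 in cytarabine and passed, but not without cytarabine replicate 1 (-0.34), cytarabine replicate 2 (-0.44) or 5-FU replicate 2 (-0.37). SESN1, a p53-induced regulator of peroxiredoxins, lacked the 5-FU values that the channel term needs. Its cisplatin arrays read 1.79 and 2.06, against 0.13 to 0.45 in cytarabine, paclitaxel and cytochalasin D and -0.71 on the 1 5-FU array.

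In the glutathione list 4 of 10 fell in 5-FU and 0 rose (median -0.05), against 12% and 5.41% of all features. Beside SLC7A11, already counted among the NRF2 targets, these were GLRX, GSTO1 and CTH. GLRX, the glutathione-dependent glutaredoxin, read -0.58 ± 0.07 in 5-FU (adjusted p = 0.00073). Without the channel term GLRX also passed as a fall in cytarabine (-0.25, adjusted p = 0.033). GSTO1 read -0.46 in 5-FU, and -0.34 and not passing without 5-FU replicate 2. CTH, which makes cysteine, read -0.55 in 5-FU from 1 replicate. GSS, the second enzyme of glutathione synthesis, rose by 0.37 in cisplatin, a call that ended without replicate 1 (0.31). The mitochondrial superoxide dismutase SOD2 rose by 0.53 ± 0.06 in 5-FU (adjusted p = 0.00086), but its arrays differed by orientation, with 1.43 and 0.79 for drug RNA in channel 2 and -0.32 and 0.24 for drug RNA in channel 1. SOD2 rose by 0.97 in cisplatin, with arrays at 0.30 and 0.49. Without the channel term that rise was 0.395 and still passed (adjusted p = 0.0065), so its size depends on the term. With the term SOD2 was also called higher in cytarabine (0.32), paclitaxel (0.41) and cytochalasin D (0.45), where all 6 arrays read below 0. Those 3 calls ended without 5-FU replicate 1, at 0.02, 0.11 and 0.15 in that order of drugs, and without either replicate of the drug itself. Without the channel term SOD2 passed in cytarabine as a fall instead (-0.25, adjusted p = 0.025). In paclitaxel (-0.17) and cytochalasin D (-0.12) it then did not pass. CAT, the peroxide-degrading catalase, read 0.27 in cytarabine and passed, but not without either cytarabine replicate (0.28 and 0.27) or either 5-FU replicate (0.28 and 0.27). CYBA, a subunit of the superoxide-producing NADPH oxidase, passed at 0.63 in cytarabine, with arrays at 0.73 and 0.87, but not without either cytarabine (0.70 and 0.56), paclitaxel or cytochalasin D replicate (0.63 each). XDH, the xanthine oxidoreductase, read -0.99 in cytochalasin D from a single array. Its adjusted p of 0.04 takes the spread from the other drugs, and it did not pass without the channel term (-0.81), 5-FU replicate 2 (-0.59), either cisplatin replicate or cytochalasin D replicate 2 (-0.99 each).

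Of the arrestin and MondoA list only KLF10, a TGF-beta-induced zinc finger factor, had the values for the test. It rose by 1.45 ± 0.18 in cisplatin (adjusted p = 0.0027), with arrays at 1.30 and 1.42, and read 0.14 in 5-FU (adjusted p = 0.62). The beta-arrestin ARRB1, a distant relative of TXNIP, read 0.49 and 0.62 on the cisplatin arrays, -0.63 on the 1 5-FU array and -0.28 to 0.22 in cytarabine, paclitaxel and cytochalasin D. MLXIP, which encodes MondoA, read -0.72 and -0.15 in cisplatin and -0.32 on the 1 5-FU array. Its arrays ran from -0.46 to 0.11 in cytarabine, paclitaxel and cytochalasin D. MLXIP was not tested with the channel term, and it passed in no drug without that term. The metallothionein MT1X fell by 0.55 ± 0.08 in 5-FU (adjusted p = 0.0029). MTF1, the zinc-sensing factor that drives metallothioneins, was not tested with the channel term; its cisplatin arrays read 1.56 and 1.59, against 0.43 on the 1 5-FU array and -0.46 to -0.06 in cytarabine, paclitaxel and cytochalasin D. Without that term MTF1 passed upwards in cisplatin (adjusted p = 0.00019) and downwards in cytarabine (-0.38, adjusted p = 0.019), and its single 5-FU array also passed (adjusted p = 0.044).

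**Figure D4:**
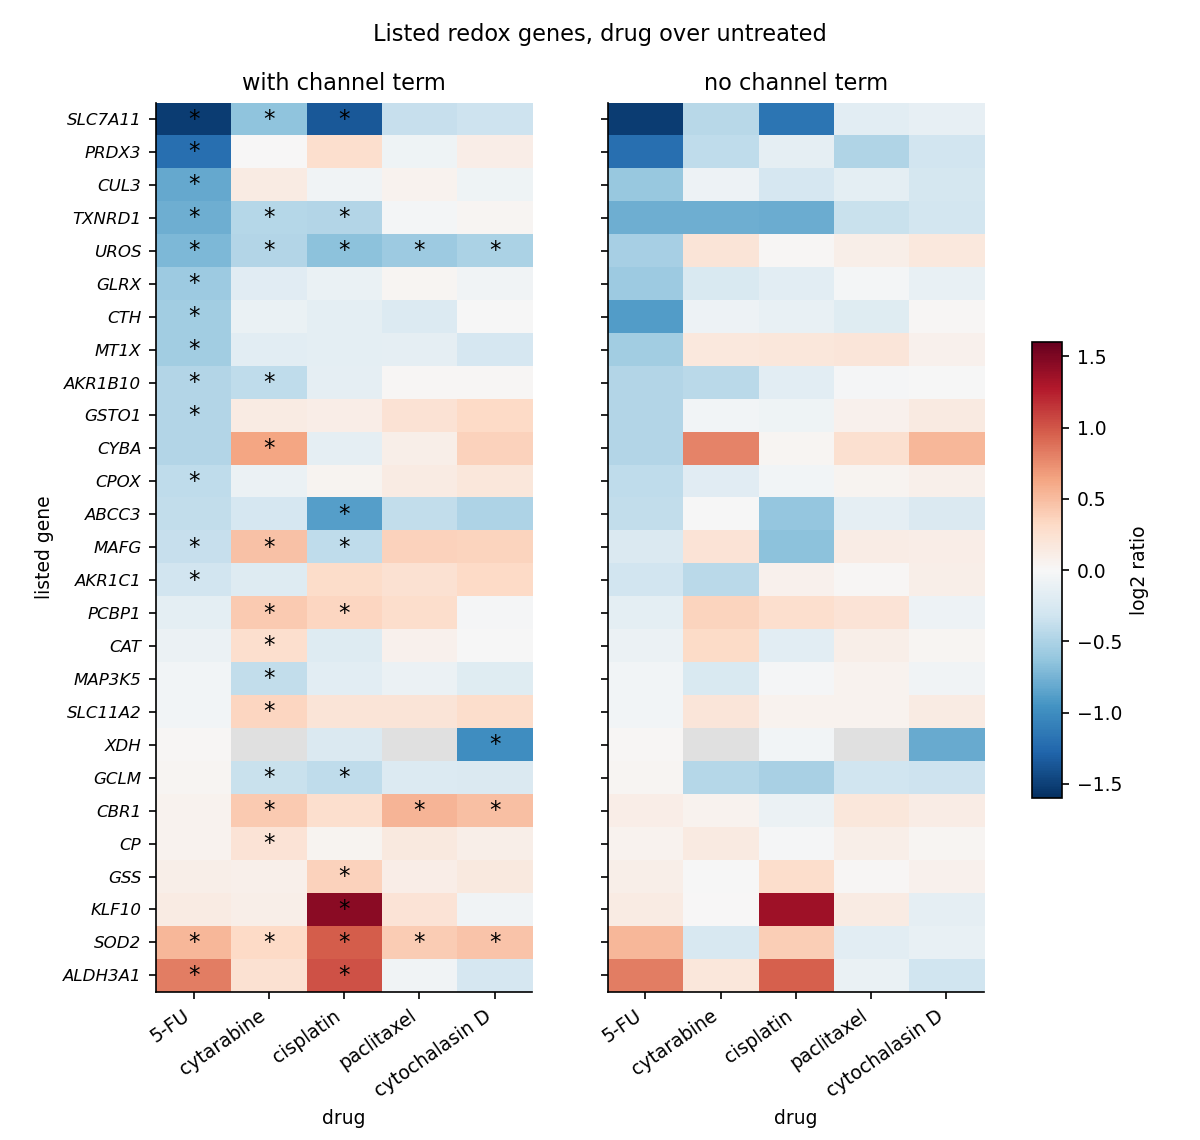
Log2 ratio of drug over untreated RNA (colour) for the listed genes called in at least 1 drug, with the channel term (left, asterisks mark adjusted p under 0.05) and without it (right); grey cells have no value. SLC7A11 is low in 5-FU, cytarabine and cisplatin in both panels, whereas UROS changes sign between the panels in all 4 drugs hybridised in 1 orientation and SOD2 in cytarabine, paclitaxel and cytochalasin D, but not in cisplatin.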

How the data were processed

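The authors deposited 1 table of log ratios per probe, taken here as log2. Its log base, numerator, normalization and spot filter are stated by no label or header. With natural logarithms the mean of HMOX1 in 5-FU would be 11.6-fold and that of TXNIP in cisplatin 7.72-fold. Depth is not defined for arrays, and 2 replicates per drug limit the precision. Probes were named from the platform annotation (5930 with 1 gene, 79 with several, 2161 with none). Each array was turned, centred on its median, and probes of a gene averaged, giving 7739 features.

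Members and lists were chosen with earlier results of these data known. Listed genes were tested by limma 3.58.1 in R 4.3.3 on 10 replicates and 1 channel observation from the 5-FU arrays (weight 4 with both pairs, 2 with 1), with Benjamini-Hochberg adjustment across all features. That channel observation is fitted exactly, so standard errors of the other 4 drugs may be too small. Genes with 1 replicate were kept. The fit was tested on simulated data. Named were HMOX1, TXNIP, MDM2, CDKN1A, listed genes called in at least 1 drug or fixed by name, and for each member the 5 genes most and 2 least like it; SESN1, ARRB1 and MTF1 were chosen after their values were seen.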

Additional observations from a re-analysis of the deposited data

How the results depend on the processing

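Without the channel term HMOX1 read 0.17 in cytarabine, 0.063 in cisplatin, 0.18 in paclitaxel and 0.42 in cytochalasin D, and TXNIP 0.058 in paclitaxel and 0.082 in cytochalasin D. Arrays scaled to the same spread gave HMOX1 2.27 in 5-FU, 0.30 in cytarabine, 0.22 in cisplatin and 0.65 in cytochalasin D. In 5-FU, the arrays with drug RNA in channel 2 alone gave 2.77 for HMOX1 and 0.092 for TXNIP, and those with drug RNA in channel 1 alone 2.13 and -0.055. Leaving out replicates, HMOX1 ranged over 2.37 to 2.53 in 5-FU, 0.42 to 0.57 in cytarabine, 0.30 to 0.47 in cisplatin, 0.36 to 0.64 in paclitaxel and 0.67 to 0.82 in cytochalasin D. TXNIP ranged over 0.00 to 0.04 in 5-FU, -0.22 to 0.05 in cytarabine, 2.00 to 2.24 in cisplatin, 0.08 to 0.18 in paclitaxel and 0.11 to 0.20 in cytochalasin D. Counts of listed genes called ranged over 10 to 15, 4 to 13, 7 to 11, 0 to 3 and 0 to 4 in the same order of drugs. With every array as its own observation the count was 8 in cytarabine and 0 in paclitaxel and cytochalasin D. Scaled arrays gave 6 in cytarabine and 7 in cytochalasin D. A minimum absolute log2 ratio of 0.5 left 2 in cytarabine, 6 in cisplatin and 2 in cytochalasin D. Of 47 calls of a gene in a drug, 32 were kept without the channel term, 8 were lost and 7 reversed: SOD2 read -0.25 in cytarabine, -0.17 in paclitaxel and -0.12 in cytochalasin D, and UROS 0.21, 0.023, 0.092 and 0.17 in cytarabine, cisplatin, paclitaxel and cytochalasin D. The cause was not tested. Only genes with both replicates of the drug, an alternative chosen after seeing the data, left 11 calls in 5-FU and 3 in cytochalasin D. Replicate differences were nearly uncorrelated between drugs (r -0.06 to 0.09), so they gave no sign that replicate numbers pair the samples. Pairing with a small effect is not excluded by this. With a replicate block HMOX1 in 5-FU read 2.45. Listed genes called were then 15, 11, 11, 3 and 3 in 5-FU, cytarabine, cisplatin, paclitaxel and cytochalasin D. Signal over background is unknown, since no spot intensities were used.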
